A study of Mus musculus with 22 samples.

Results

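The 41 genes described here encode enzymes that act on foreign compounds in mouse lung, and they were taken by name out of 20018 genes named on the array. They comprised 7 cytochrome P450 genes, the P450 reductase Por, 2 flavin monooxygenases, 4 oxidases and dehydrogenases, 18 glutathione transferases, 2 epoxide hydrolases, 4 glucuronosyl, sulfo and methyl transferases and 3 carbonyl reductases. Each gene was represented by its brightest probe, and all 41 genes were measured and lay above background. Lung RNA came from 22 female C57BL/6 mice aged 8 weeks at the start of the experiment. Of these, 5 were vehicle controls, 6 were given 18 µg, 5 were given 54 µg and 6 were given 162 µg of Mitsui7, a multiwalled carbon nanotube. All mice, controls included, received a single intratracheal instillation of 40 µl of 0.9% NaCl with 10% mouse bronchoalveolar lavage fluid, and lungs were collected after 24 hours. Instillation delivers the whole dose at once, unlike inhalation. On each array the lung RNA carried Cy5 and a reference RNA from 11 mouse cell lines carried Cy3, and values below are log2 ratios of the lung signal over the reference signal on the same spot.

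Metabolism of foreign compounds is usually divided into phases. In phase I, cytochromes P450, flavin monooxygenases and various oxidases, dehydrogenases and reductases introduce or expose a reactive group, and epoxide hydrolases open the epoxides that P450 enzymes can form. In phase II, glutathione, glucuronic acid, sulfate or methyl groups are attached by transferases, which generally makes products easier to excrete. In lung, many of these enzymes are concentrated in the non-ciliated secretory (club) cells of the airways, and others occur in alveolar type II and endothelial cells. The aryl hydrocarbon receptor and the factor NRF2 are known regulators of many genes in these families, through the dioxin response element and the antioxidant response element.

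Promoters of 4 members are shown, since these genes of several enzyme families were all down-regulated at 18 µg. RefSeq windows of 300 bases, 250 before and 50 after the annotated start, were found for 35 of the 41 genes in build GRCm38.p6. Where several starts were listed, which was so for 8 genes, the one listed first was taken. Capitals mark the core of the dioxin response element, GCGTG, or of the antioxidant response element, TGACNNNGC, on either strand. The Cyp2s1 window is chr7:25816476-25816775 on the minus strand, that of Por is chr5:135688895-135689194 on the plus strand, that of Gstm1 is chr3:108017924-108018223 on the minus strand, and that of Mgst1 is chr6:138140277-138140576 on the plus strand.
Cyp2s1: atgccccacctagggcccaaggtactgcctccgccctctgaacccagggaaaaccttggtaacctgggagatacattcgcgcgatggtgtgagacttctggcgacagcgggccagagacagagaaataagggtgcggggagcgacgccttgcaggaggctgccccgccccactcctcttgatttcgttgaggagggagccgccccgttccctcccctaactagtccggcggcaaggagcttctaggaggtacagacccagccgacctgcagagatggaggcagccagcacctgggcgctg
Por: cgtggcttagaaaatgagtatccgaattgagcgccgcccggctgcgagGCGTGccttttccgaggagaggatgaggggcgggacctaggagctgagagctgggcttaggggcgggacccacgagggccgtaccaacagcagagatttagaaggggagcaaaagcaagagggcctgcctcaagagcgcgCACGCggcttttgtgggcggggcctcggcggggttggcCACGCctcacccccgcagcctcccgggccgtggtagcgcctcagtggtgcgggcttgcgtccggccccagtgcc
Gstm1: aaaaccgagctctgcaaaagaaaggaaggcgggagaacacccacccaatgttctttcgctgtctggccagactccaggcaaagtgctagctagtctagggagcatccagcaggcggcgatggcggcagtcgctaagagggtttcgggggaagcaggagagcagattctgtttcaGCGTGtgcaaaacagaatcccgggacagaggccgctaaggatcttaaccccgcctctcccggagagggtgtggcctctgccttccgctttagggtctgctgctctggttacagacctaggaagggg
Mgst1: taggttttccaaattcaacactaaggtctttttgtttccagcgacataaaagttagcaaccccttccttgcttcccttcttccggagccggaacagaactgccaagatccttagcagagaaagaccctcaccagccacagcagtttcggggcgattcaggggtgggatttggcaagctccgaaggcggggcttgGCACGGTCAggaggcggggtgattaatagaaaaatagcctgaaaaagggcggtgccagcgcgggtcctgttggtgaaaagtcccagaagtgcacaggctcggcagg
The Por window held the GCGTG core 3 times, that of Gstm1 held it at 1 place, that of Mgst1 held the antioxidant core at 1 place, and that of Cyp2s1 held neither. Across the 35 genes with a window, 10 (28.6%) held GCGTG and 4 (11.4%) held TGACNNNGC. Across all 27025 genes with a window the shares were 32.5% and 12.5%. A match of letters describes the window and is not a binding site.

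In control lung, 35 of the 41 genes had a mean log2 ratio above 0, that is, more signal in lung than in the reference RNA. The highest ratio was that of Cyp4b1, a P450 known for activating toxicants in rodent airway cells, at 7.65 ± 0.48 (SD, n = 5). The lung carbonyl reductase Cbr2 followed at 5.59 ± 0.37 (n = 4), then Fmo1 at 5.19 ± 0.37, the alcohol dehydrogenase Adh1 at 5.13 ± 0.21 and Cyp2b10 at 5.05 ± 0.46 (n = 4). In Cbr2 and Cyp2b10 the outlier spot of 1 control was left out. Fmo1, Adh1 and Cyp2b10 differed from each other by less than their SD. This order compares enrichment over the reference and not abundance between genes. Fmo2, the flavin monooxygenase best known from lung, was at 4.60 ± 0.20, Gsta3 at 4.50 ± 0.14 and Sult1a1 at 4.49 ± 0.33. The 6 genes with a mean below 0 were Gstm5 (-1.23 ± 0.32), Tpmt (-1.29 ± 0.23), Mgst2 (-0.64 ± 0.39), Gstp1 (-0.55 ± 0.17), Mgst3 (-0.17 ± 0.53) and Ugt1a6a (-0.01 ± 0.26).

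Some arrays of treated mice were dimmer than any control array. Between 70.5% and 77.7% of probes lay above background on control arrays. This share was 56.8% to 77.9% for 18 µg mice, 58.1% to 78.9% for 54 µg mice and 52.1% to 83.5% for 162 µg mice. The 18 µg mouse of replicate 3 stood apart from its group in several enzyme genes and in airway markers, as given below. The arrays lay on 7 slides. Slides 3 and 6 held arrays of every dose group but no control. The 4 arrays with under 60% of probes above background lay on them. On slide 2 the share was 75.2% for the control and 77.9% and 83.5% for treated mice. On slide 7 it was 70.5% for the control and 61.8% to 64.3% for treated mice. Dose and slide thus cannot be fully told apart in these shares. Slide was part of the fit, so a fold change can differ from the plain difference of group means. The ratios of single mice, and counts of mice beyond all controls, are not adjusted for slide.

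At 18 µg, 8 of the 41 genes (19.5%) were down-regulated and none was up-regulated where a call required 0.05 or less for adjusted p together with 1.5-fold or more, against 1.44% of 16433 expressed genes that were lower and 0.633% that were higher. They came from most classes and comprised the P450 Cyp2s1, the reductase Por, the aldehyde dehydrogenase Aldh3b1, the glutathione transferases Gstm1, Gstm6 and Mgst1, the epoxide hydrolase Ephx1 and the sulfotransferase Sult1d1. At 54 µg none passed, with a background of 0.14% lower and 0.249% higher. At 162 µg Cyp2s1, Gstm6 and Sult1d1 were lower (7.32% of the members, background 3.54%) and the transferases Mgst3 and Sult1a1 were higher (4.88%, background 3.34%). The share of members that were higher at 162 µg was thus near that of all genes. In bulk lung RNA, fewer cells of a type and less RNA per cell cannot be told apart.

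**Figure D1:**
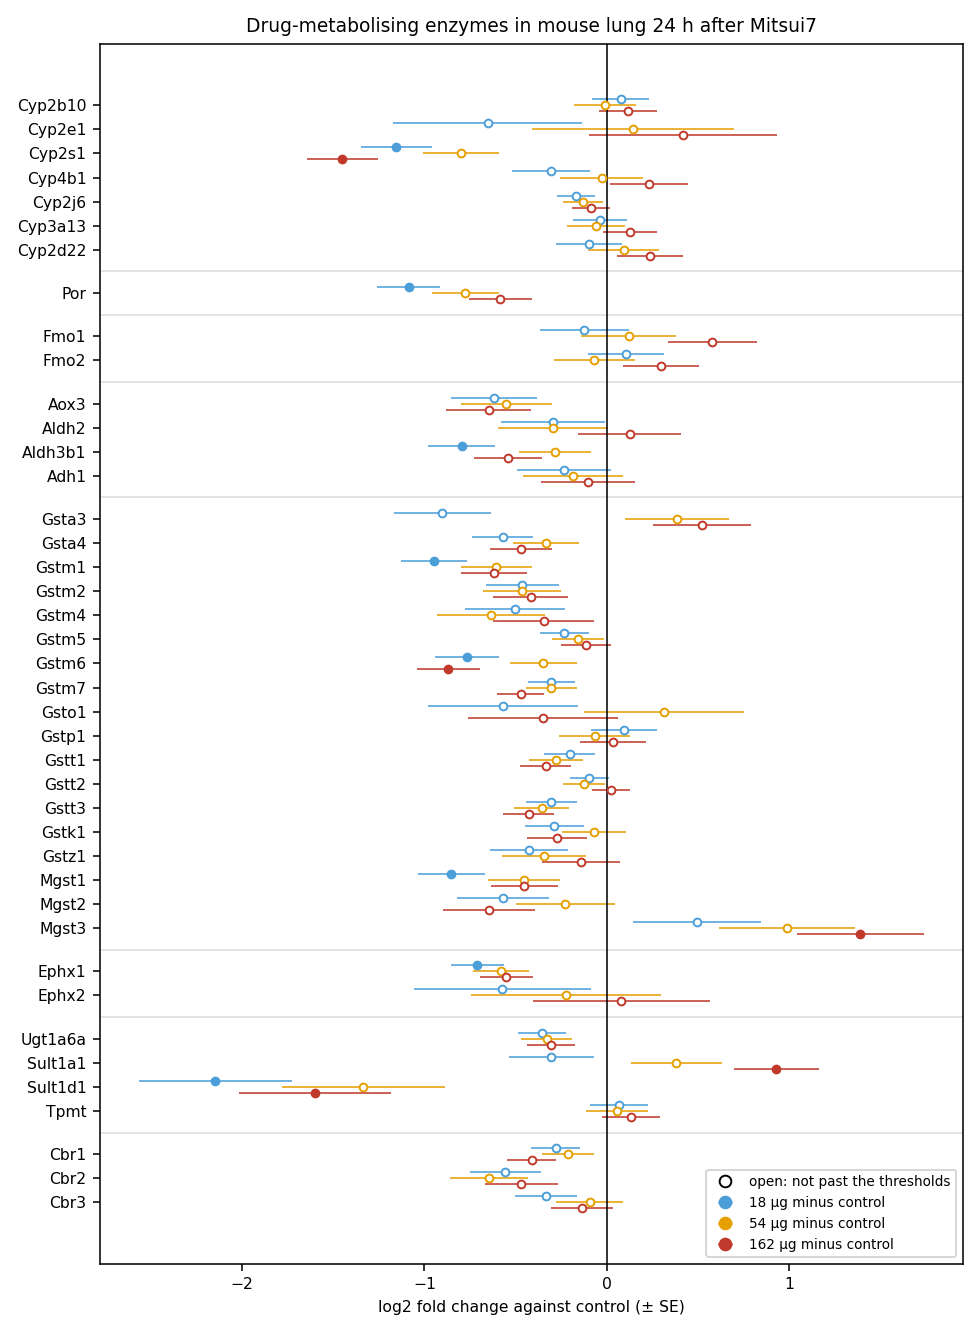
Log2 fold change against control (x axis, ± SE) of each of the 41 enzyme genes (y axis, grouped by class) at 18 µg (blue), 54 µg (orange) and 162 µg (red), with filled points for changes past both thresholds. Most points lie to the left of 0, 36 of 41 at 18 µg, while Mgst3 and Sult1a1 lie to the right at 162 µg.

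The count at 18 µg rested on single mice of both groups. It was 0 without control replicate 1, 4 without control replicate 3, 1 without control replicate 5 and, leaving out mice of the dose group, 3, 5, 4 and 1 without replicates 1, 3, 4 and 5, while every one of the 8 estimates stayed below 0 in those fits. It was 1 when the 2 groups were fitted alone and 2 in the deposited log2 table. Without adjustment, at a p under 0.05, 17 members were lower and 0 higher at 18 µg (13.2% and 9.1% of all expressed genes), 13 were lower and 1 higher at 54 µg (7.91% and 5.98%), and 17 were lower and 3 higher at 162 µg (15.4% and 13.5%). All mice of the dose lay below all controls in 5 members at 18 µg (background 1.98%), 7 at 54 µg (1.8%) and 4 at 162 µg (4.48%), and above all controls in 0 (1.42%), 0 (1.51%) and 2 (3.72%).

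Among the P450 genes, Cyp2s1 was the member past the thresholds. It encodes a P450 expressed mainly outside the liver, in epithelia, and is known as a target of the aryl hydrocarbon receptor. The control mice had log2 ratios of 4.03, 3.37, 3.55, 3.88 and 3.35. The 18 µg mice had a lowest value of 1.52, a median of 2.42 and a highest of 3.36, the 54 µg mice had 2.87, 2.81, 2.41, 2.03 and 2.98, and the 162 µg mice ranged from 1.27 through a median of 1.91 to 3.02. All mice at 54 and 162 µg lay below every control, and 5 of 6 did at 18 µg. Against control its log2 fold change was -1.15 (SE 0.20, adjusted p = 0.0144) at 18 µg, -0.80 (SE 0.21, adjusted p = 0.164) at 54 µg and -1.45 (SE 0.20, adjusted p = 4.75e-04) at 162 µg, the last a 2.73-fold fall. Relative to a control on the same slide, Cyp2s1 was lower on 4 of 4 slides at 18 µg, 3 of 3 at 54 µg and 4 of 4 at 162 µg. The call at 18 µg was lost without control replicate 1, control replicate 5 or the 18 µg replicate 5, and the call at 162 µg held with any mouse left out.

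The other 6 P450 genes passed at no dose, and estimates of Cyp3a13 and Cyp2d22 lay between -0.10 and 0.24. A second probe of Cyp3a13 had -0.42 at 18 µg and 0.48 at 162 µg, and was not called either. Cyp2b10, a known target of the receptor CAR, and Cyp4b1 differed from controls by 0.12 and 0.23 at 162 µg, with standard errors of 0.16 and 0.21. Cyp2j6, which oxidises fatty acids, changed least of the class at 162 µg, by -0.09 (SE 0.10). Cyp2e1, which oxidises ethanol and small solvents, varied most between mice, with a range of 2.67 to 4.74 among controls, 1.16 to 4.29 among 18 µg mice, 2.08 to 4.21 among 54 µg mice and 1.42 to 5.30 among 162 µg mice. Its standard error of 0.52 at 162 µg was therefore larger than its estimate of 0.42, and a second probe of the gene had -0.24 at that dose. Fat cell markers (Adipoq, Cidec, Cfd and Ucp1, chosen after the values were seen) varied as widely, with a mean log2 ratio of 0.68 to 5.51 at 18 µg and 0.69 to 6.88 at 162 µg, and their part in Cyp2e1 was not tested.

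Por hands electrons from NADPH to all microsomal P450 enzymes. Its log2 ratios were 2.03, 1.30, 1.68, 1.46 and 1.44 in controls, and 0.83, 0.83, 1.06, 0.51 and 1.07 at 54 µg. At 18 µg they ran from 0.02 through a median of 0.51 to 0.98, and at 162 µg from 0.41 through 1.10 to 1.57. The 18 µg and 54 µg mice all lay below every control, and the 162 µg mice overlapped them. In the fit its log2 fold change was -1.09 (SE 0.17, adjusted p = 0.0105) at 18 µg, -0.78 (SE 0.18, adjusted p = 0.114) at 54 µg and -0.59 (SE 0.17, adjusted p = 0.0552) at 162 µg. Among the single mice left out, the loss of control replicate 1 was what ended the call at 18 µg. Between 162 and 18 µg, Por differed by 0.50 (SE 0.16, adjusted p = 0.0989).

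The flavin monooxygenases oxidise nitrogen and sulfur atoms of many drugs. Neither passed the thresholds at any dose. Fmo1 had the larger change at 162 µg, 0.58 (SE 0.24, adjusted p = 0.208, 95% interval 0.07 to 1.09), with control ratios of 4.60 to 5.62 and ratios at 162 µg of 5.23 to 6.67, so the groups overlapped. Fmo2 differed by 0.30 (SE 0.21, adjusted p = 0.524), with 4.37 to 4.90 in controls and 4.74 to 6.12 at 162 µg.

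Aldh3b1, an aldehyde dehydrogenase that oxidises aldehydes of lipid peroxidation, was lower at 18 µg. Its ratios were 2.30, 1.69, 1.88, 2.10 and 1.91 in controls and 1.69, 1.53, 1.76, 1.00 and 2.13 at 54 µg. They ran from 0.62 through a median of 1.23 to 1.88 at 18 µg and from 0.78 through 1.31 to 2.24 at 162 µg. At 18 µg 5 of 6 mice were below every control, and at the other doses the groups overlapped. At 18 µg its log2 fold change was -0.80 (SE 0.19, adjusted p = 0.0432), and this call was lost in 16 of 22 fits that left out a mouse. Of the rest of its class, the aldehyde oxidase Aox3 differed most at 162 µg, by -0.65 (SE 0.23, adjusted p = 0.126), and the alcohol dehydrogenase Adh1 least, by -0.11 (SE 0.26). The mitochondrial Aldh2, which clears acetaldehyde, differed by -0.30, -0.30 and 0.12 at the 3 doses, with standard errors of 0.28 to 0.30.

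Epoxide hydrolases add water to epoxides. Ephx1, the microsomal form, had ratios of 1.63, 1.51, 1.55, 1.17 and 1.30 in controls and 0.62, 0.82, 1.03, 0.81 and 0.39 at 54 µg, with 0.21, 0.57 and 1.08 as lowest, median and highest at 18 µg and 0.24, 0.87 and 1.10 at 162 µg. All treated mice at all 3 doses lay below all controls. Its log2 fold change was -0.71 (SE 0.15, adjusted p = 0.0269) at 18 µg and -0.58 (SE 0.16, adjusted p = 0.172) at 54 µg. At 162 µg it was -0.55 (SE 0.15, adjusted p = 0.0308), which passed in p but fell short of 1.5-fold. The call at 18 µg was lost in 7 of 22 fits with a mouse left out and, with the median over all probes of the gene, the estimate was -0.51 (adjusted p = 0.115). Ephx2, the soluble form that hydrolyses epoxides of fatty acids, differed by 0.08 (SE 0.48) at 162 µg, with ratios of 0.06 to 3.53 there.

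**Figure D2:**
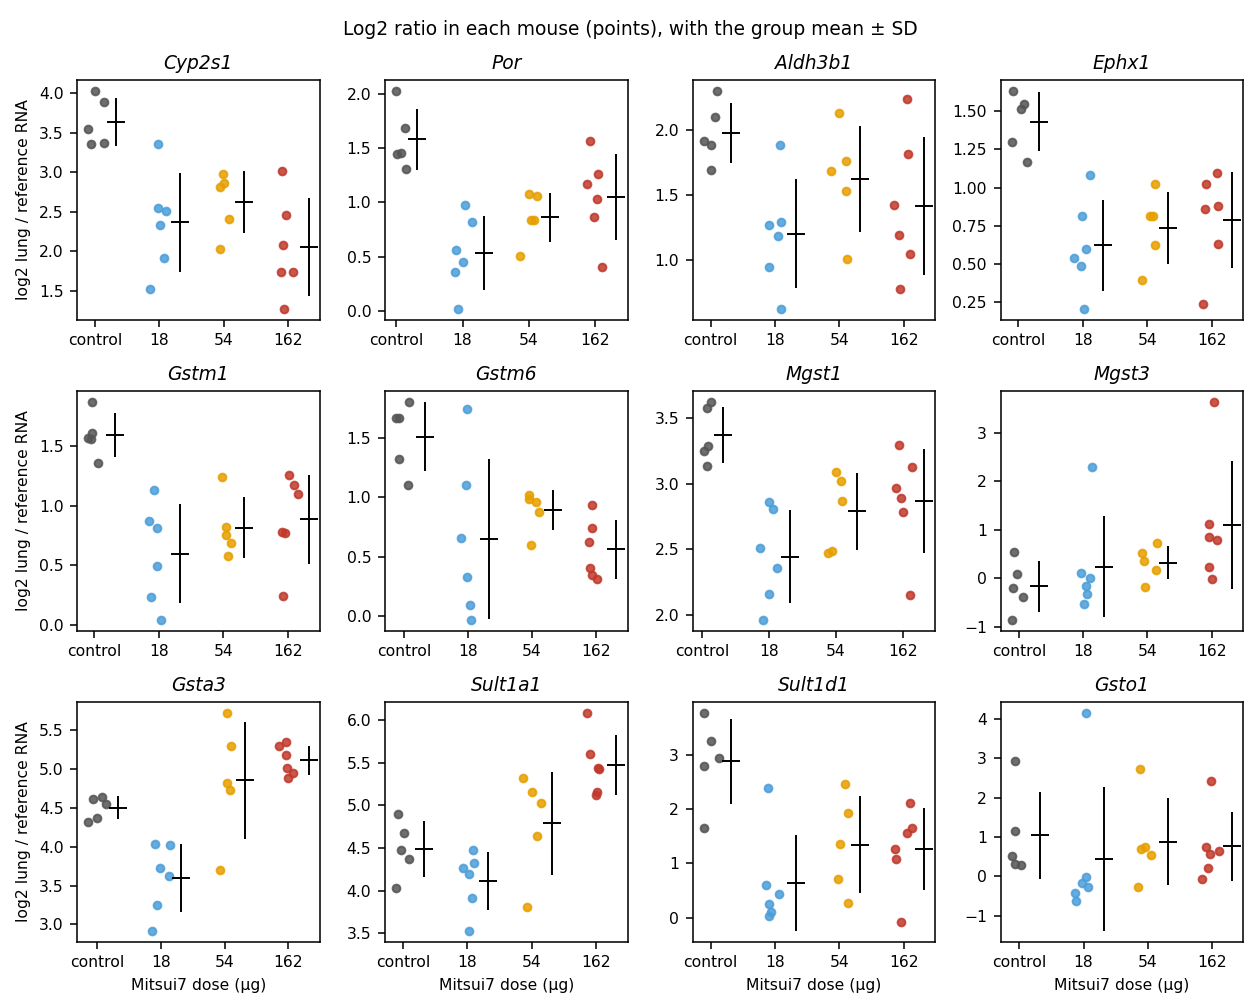
Log2 ratio of lung to reference RNA (y axis) in each mouse by Mitsui7 dose (x axis, µg) for 12 enzyme genes, points for mice and bars for the group mean ± SD. Ephx1 and Gstm1 lie below every control at 54 and 162 µg, Sult1a1 lies above every control at 162 µg, and 1 mouse at 18 µg is far above its group in Mgst3, Sult1d1 and Gsto1.

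Glutathione transferases couple glutathione to electrophilic compounds. The mu class genes Gstm1, Gstm2, Gstm4, Gstm5, Gstm6 and Gstm7 lie in 1 cluster on chromosome 3, together with Gstm3, and are similar in sequence, so that a probe may also bind transcripts of a neighbour. All 6 had estimates below 0 at each of the 3 doses, with medians of -0.48, -0.41 and -0.44. The median of all expressed genes was -0.02, -0.01 and -0.01. The size of the mu class estimates depended on the probe. A second probe of Gstm4 had -0.001, -0.02 and -0.07, where its brightest had -0.50, -0.63 and -0.35. Other probes of Gstm6 had -0.38 and -0.11 at 18 µg, and those of Gstm1 and Gstm2 ran from -0.76 to -0.23.

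Gstm1 had ratios of 1.87, 1.56, 1.36, 1.57 and 1.61 in controls and 0.58, 0.82, 1.24, 0.68 and 0.76 at 54 µg. The lowest, median and highest were 0.04, 0.65 and 1.13 at 18 µg and 0.24, 0.94 and 1.25 at 162 µg. Every treated mouse was thus below every control at each dose. The log2 fold change was -0.95 (SE 0.18, adjusted p = 0.0223) at 18 µg, -0.61 (SE 0.20, adjusted p = 0.297) at 54 µg and -0.62 (SE 0.18, adjusted p = 0.0547) at 162 µg. The call at 18 µg was lost without control replicate 1, control replicate 5 or the 18 µg replicate 5.

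Gstm6 had ratios of 1.32, 1.67, 1.67, 1.80 and 1.10 in controls and 0.88, 0.96, 0.99, 0.60 and 1.02 at 54 µg. At 18 µg the lowest was -0.03, the median 0.49 and the highest 1.74, and at 162 µg they were 0.31, 0.52 and 0.94. The 54 and 162 µg mice lay below every control, and 4 of 6 mice did at 18 µg. The log2 fold change was -0.77 (SE 0.17, adjusted p = 0.0386) at 18 µg, -0.35 (SE 0.18, adjusted p = 0.652) at 54 µg and -0.87 (SE 0.17, adjusted p = 0.00626) at 162 µg. The call at 162 µg held with any mouse left out, and that at 18 µg was lost in 13 of 22 such fits. With the median over all probes of the gene both estimates fell short of 1.5-fold, at -0.48 and -0.58. Gstm7 passed in p at 162 µg, with -0.47 (SE 0.13, adjusted p = 0.0385), but not in fold. Its spot was well above its local background in 3 of 6 mice at that dose, and a second probe had -0.22 (adjusted p = 0.15). Gstm2, Gstm4 and Gstm5 passed at no dose and had estimates of -0.46, -0.50 and -0.23 at 18 µg and -0.42, -0.35 and -0.11 at 162 µg. In Gstm2 all 54 µg mice lay below every control.

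Mgst1, Mgst2 and Mgst3 belong to a separate family of membrane-bound enzymes of glutathione conjugation and lipid mediator metabolism. Mgst1 had ratios of 3.62, 3.14, 3.29, 3.58 and 3.25 in controls and 2.47, 3.09, 2.87, 2.49 and 3.02 at 54 µg. At 18 µg they ran from 1.96 through a median of 2.43 to 2.86, and at 162 µg from 2.15 through 2.93 to 3.30. The 18 and 54 µg mice lay below every control, with a log2 fold change of -0.85 (SE 0.18, adjusted p = 0.0332) at 18 µg, -0.45 (SE 0.20, adjusted p = 0.519) at 54 µg and -0.45 (SE 0.18, adjusted p = 0.190) at 162 µg. The call at 18 µg was lost in 8 of 22 fits with a mouse left out.

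Mgst3 ran the other way. Its ratios were -0.86, -0.40, -0.21, 0.09 and 0.54 in controls and 0.36, -0.18, 0.17, 0.51 and 0.73 at 54 µg, with -0.53, -0.08 and 2.30 as lowest, median and highest at 18 µg and -0.02, 0.81 and 3.63 at 162 µg. At 162 µg 4 of 6 mice were above every control, and the highest value in both groups came from replicate 3, on the same slide. Its estimate at 162 µg was 1.39 on the log2 scale (SE 0.35, adjusted p = 0.0242). It was 0.87 without control replicate 4, and the call was lost without that mouse, control replicate 1 or the 162 µg replicates 1 or 3. It was also lost with slide left out of the fit (adjusted p = 0.196).

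Gsta3, an alpha class transferase known for detoxifying the epoxide of aflatoxin in mice, passed in no comparison with controls but differed between doses. Its ratios were 4.32, 4.38, 4.55, 4.62 and 4.64 in controls and 3.71, 5.30, 5.72, 4.72 and 4.81 at 54 µg. They ran from 2.92 through a median of 3.68 to 4.04 at 18 µg and from 4.89 through 5.10 to 5.35 at 162 µg. All 18 µg mice lay below every control and all 162 µg mice above every control, with log2 fold changes of -0.90 (SE 0.27, adjusted p = 0.0966) and 0.52 (SE 0.27, adjusted p = 0.327). Between 162 and 18 µg the difference was 1.42 (SE 0.25, adjusted p = 0.00358), and it passed with any mouse left out.

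Among the remaining transferases none passed. Gsta4, which conjugates hydroxynonenal, had estimates of -0.57, -0.33 and -0.47, and Mgst2 of -0.57, -0.23 and -0.65, at 18, 54 and 162 µg. Gstt1, Gstt3, Gstk1 and Gstz1 lay between -0.43 and -0.07 at all doses. Gstt2, of the theta class, changed least at 162 µg, by 0.02 (SE 0.11), and Gstp1, the pi class enzyme, by 0.03 (SE 0.18). Gsto1, the omega class enzyme, differed by -0.57 (SE 0.41) at 18 µg, 0.31 (SE 0.44) at 54 µg and -0.35 (SE 0.41) at 162 µg. In each group 1 mouse lay well above the rest. The values were 2.92 in control replicate 4, 4.14 in the 18 µg replicate 3, 2.72 in the 54 µg replicate 5 and 2.43 in the 162 µg replicate 3. The next highest values of those groups were 1.16, -0.01, 0.73 and 0.76. The control, 18 µg and 162 µg mice named were the only ones on their slide, so mouse and slide cannot be told apart in them.

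Sulfotransferases transfer sulfate to phenols and amines. Sult1d1, which acts on catecholamines among other substrates, showed the lowest estimates of all 41 genes. Its ratios were 2.80, 2.95, 3.77, 3.26 and 1.65 in controls and 1.36, 0.72, 1.92, 0.26 and 2.47 at 54 µg. The lowest, median and highest were 0.03, 0.35 and 2.39 at 18 µg and -0.08, 1.41 and 2.12 at 162 µg. At 18 µg 5 of 6 mice lay below every control, and so did 5 of 6 at 162 µg. The log2 fold change was -2.15 (SE 0.42, adjusted p = 0.0224) at 18 µg, -1.34 (SE 0.45, adjusted p = 0.320) at 54 µg and -1.60 (SE 0.42, adjusted p = 0.0298) at 162 µg. The spot was well above its local background in 1 of 6 mice at 18 µg, which limits the size of that fall, and a second probe of the gene, which did not count as expressed, had -0.02 and -0.07 at 18 and 162 µg, so that the median over both probes gave -1.08 and -0.84. In the deposited log2 table neither estimate passed (adjusted p = 0.0838 and 0.0889). The calls were lost in 4 of 22 fits with a mouse left out at 18 µg, and in 5 of 22 at 162 µg.

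Sult1a1, the main phenol sulfotransferase, was higher at 162 µg. Its ratios were 4.03, 4.89, 4.67, 4.47 and 4.37 in controls and 3.81, 5.32, 5.02, 5.16 and 4.64 at 54 µg, with 3.53, 4.23 and 4.47 as lowest, median and highest at 18 µg and 5.12, 5.43 and 6.08 at 162 µg. All 162 µg mice lay above all controls and above all 18 µg mice. The log2 fold change at 162 µg was 0.93 (SE 0.23, adjusted p = 0.0242), and the difference between 162 and 18 µg was 1.23 (SE 0.22, adjusted p = 0.00380), which passed with any mouse left out. The call against controls was lost without control replicates 3, 4 or 5 or the 162 µg replicate 3, and in the deposited log2 table (0.80, adjusted p = 0.153), and the estimate was 0.47 with median centring and 1.70 with Cy5 alone. The methyltransferase Tpmt, which inactivates thiopurine drugs, changed least of this class at 162 µg, by 0.13 (SE 0.16), and Ugt1a6a, which glucuronidates phenols, differed by -0.30 (SE 0.13).

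The carbonyl reductases reduce ketones, aldehydes and quinones, and none passed at any dose. Cbr2 differed most at 162 µg, by -0.47 (SE 0.20, adjusted p = 0.221), with control ratios of 5.22 to 6.03 and ratios at 162 µg of 4.87 to 5.69. Cbr3 differed least, by -0.14 (SE 0.17), and Cbr1 by -0.41 (SE 0.13, adjusted p = 0.0863).

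Between doses, Gsta3 and Sult1a1 were the 2 members (4.88%) higher at 162 than at 18 µg, against a background of 3.33%, and none was lower (1.66%). In both genes all 162 µg mice lay above all 18 µg mice, as in 2.15% of all genes. Of the members, 8 were higher at an unadjusted p under 0.05 and 0 lower, where 14.5% and 12.1% of all genes were. Between 162 and 54 µg, and between 54 and 18 µg, limma called no member. Of all genes it called 0% in either direction in the former, and 0.0122% lower and 0.0183% higher in the latter. At an unadjusted p under 0.05, 2 members were lower and 1 higher between 162 and 54 µg (background 5.79% and 6.63%), and 0 were lower and 6 higher between 54 and 18 µg (6.77% and 8.26%).

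Comparing the families, estimates were below 0 in 36 of 41 genes at 18 µg, 33 at 54 µg and 26 at 162 µg, where 53.6%, 52.6% and 51.2% of all expressed genes were below 0. The 3 comparisons share the same controls. Of 20 further probes of 18 members, 20, 17 and 18 had the sign of the brightest probe. The median log2 fold change of the 18 glutathione transferases was -0.45, -0.29 and -0.35 at 18, 54 and 162 µg, and 16, 15 and 14 of them were below 0. That of the 7 P450 genes was -0.17, -0.03 and 0.13, with 6, 5 and 2 genes below 0. That of the 2 flavin monooxygenases was -0.01, 0.03 and 0.44. With arrays centred on their median in place of loess, which moved the median of all genes to -0.26 at 18 µg and -0.18 at 162 µg, the P450 median at 162 µg became -0.06 and the flavin monooxygenase median 0.08, while the glutathione transferase median was -0.56. The difference between families was not tested, since genes are not replicates.

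**Figure D3:**
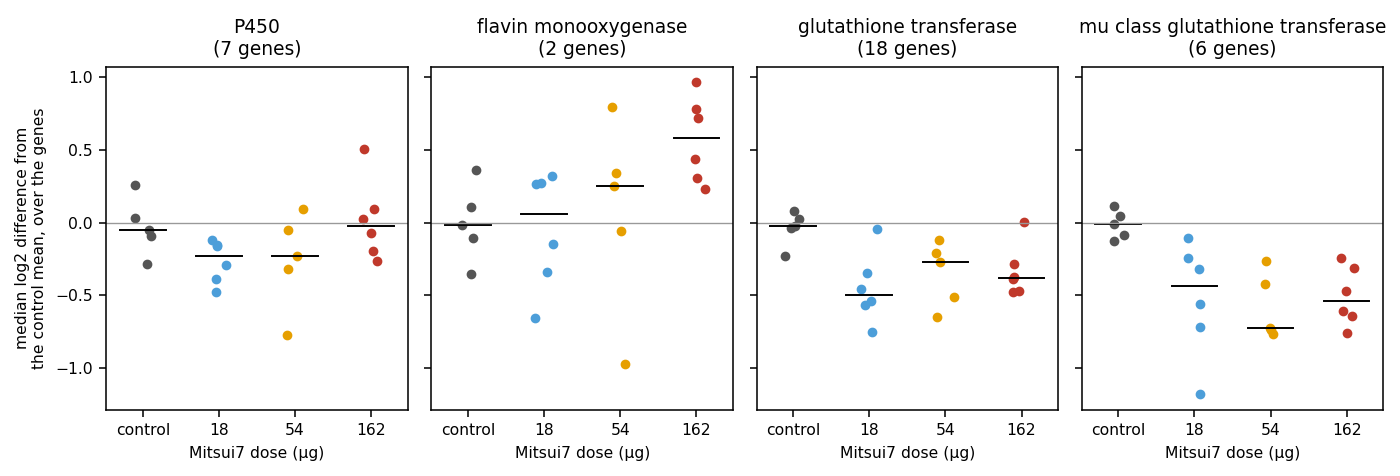
Median over the genes of a family of the log2 difference from the control mean (y axis) in each mouse, by Mitsui7 dose (x axis, µg), with a line at the group median. The mu class medians lie between -0.12 and 0.11 in controls between -1.18 and -0.10 at 18 µg, which overlaps the controls, and between -0.77 and -0.24 at 54 and 162 µg. The P450 medians of the groups overlap.

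Markers of airway cells varied beside these genes. The mean log2 ratio of 6 club cell markers on the array spanned 4.58 to 6.60 among controls, 3.08 to 6.91 among 18 µg mice, 3.98 to 6.04 among 54 µg mice and 3.62 to 6.03 among 162 µg mice, and none of the 6 was called at any dose. The 18 µg group median of this mean was 3.65, against 5.83 in controls, and the median log2 fold change of the 6 markers was -1.12, -0.53 and -0.39, with 6, 4 and 6 of them below 0. The log2 ratio of Scgb1a1, 1 of the 6, spanned 7.93 to 8.90 among controls and 6.88 to 9.21 among 18 µg mice. Among 162 µg mice it spanned 7.71 to 9.21, so the groups overlapped in this marker. The mean log2 ratio of 7 ciliated cell markers spanned 3.81 to 4.17 among controls, 2.49 to 4.52 among 18 µg mice, 2.93 to 3.92 among 54 µg mice and 1.88 to 3.97 among 162 µg mice, where 2 of the 7 were called lower. Their median log2 fold change was -0.56, -0.42 and -0.77, and 7 of 7 were below 0 at each dose. The 18 µg replicate 3, which was highest of its group in Sult1d1, Cyp2s1, Mgst3, Gsto1, Cbr1 and Cbr3, was also highest in both lists. The mean of 6 fibroblast markers spanned 2.02 to 2.39 among controls and 1.27 to 2.00 among 18 µg mice, which did not overlap. That of 5 B cell markers spanned 0.88 to 1.60 among controls and -0.004 to 0.95 among 162 µg mice, where 2 of the 5 were called lower. The median log2 fold change of these 5 markers was 0.34 at 18 µg, where 0 of them were below 0, -0.47 at 54 µg and -0.60 at 162 µg. The mean of 7 neutrophil markers spanned 1.86 to 4.60 among controls and 2.12 to 4.42 among 162 µg mice, with medians of 2.15 and 3.25. That of 4 heart muscle markers spanned 0.13 to 5.65 among controls. The part of airway cell, fibroblast, B cell, neutrophil and heart muscle content in the falls of Cyp2s1, Sult1d1 and the other enzyme genes was not tested. Over 8 type II alveolar cell markers the median log2 fold change was 0.24, -0.03 and 0.18. The mean of 4 alveolar macrophage markers spanned 4.24 to 4.76 among controls and 4.84 to 5.54 among 162 µg mice, which did not overlap. Among 18 µg mice it spanned 4.21 to 5.43, with 5 of 6 above every control. At 162 µg the median log2 fold change of the 4 markers was 0.87, with 0 of them below 0. At 18 µg it was 0.60, with 1 of the 4 below 0 and Chil3 called higher. At that dose the log2 fold change was 0.49 for Mgst3, -0.31 for Sult1a1 and -0.90 for Gsta3. In lavage fluid the paper counted fewer macrophages at 162 µg than in controls, which is another measure than marker RNA of lung tissue. The part of macrophage content in the higher levels of Sult1a1, Mgst3 and Gsta3 at 162 µg was not tested.

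**Figure D4:**
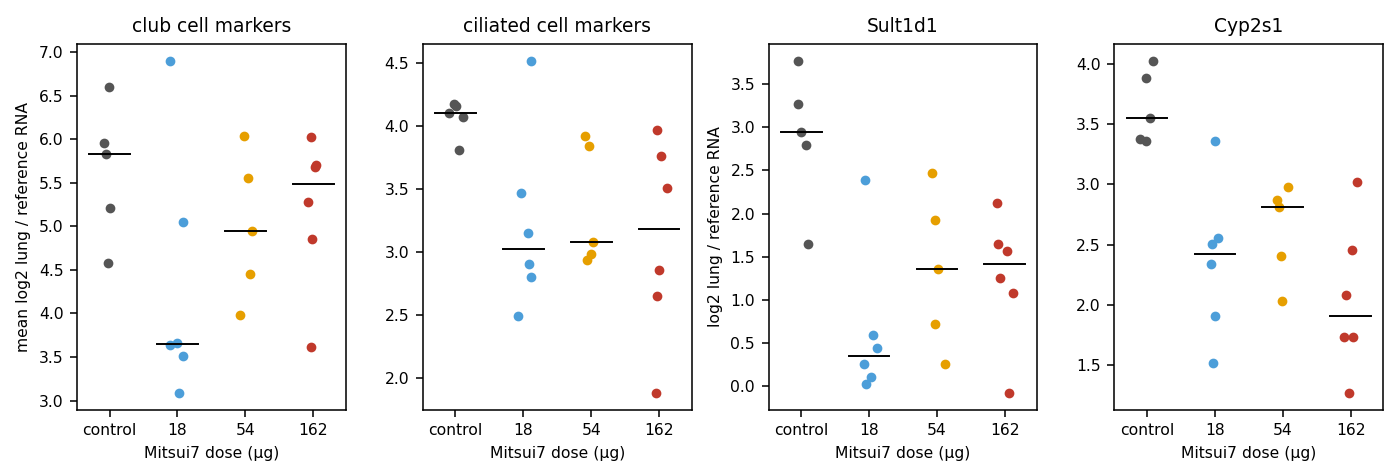
Mean log2 ratio of the club and ciliated cell marker lists (left panels) and log2 ratio of Sult1d1 and Cyp2s1 (right panels) in each mouse (points) by Mitsui7 dose (x axis, µg), with a line at the group median. The 18 µg mouse highest in both marker lists, at 6.91 and 4.52, is also the highest of its group in Sult1d1 and Cyp2s1, at 2.39 and 3.36.

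Of 92 other genes of the pathway, 82 were expressed, and at 18 µg 4 of them were lower and 0 higher (background 1.44% and 0.633%). At 54 µg 1 was lower and 0 higher (0.14% and 0.249%), and at 162 µg 2 were lower and 2 higher (3.54% and 3.34%), which is no more than the background. Their median log2 fold change was -0.09, -0.09 and -0.05. Aldh3a1, an aldehyde dehydrogenase, was lower at each dose, by -1.03 (SE 0.12, adjusted p = 0.00170), -0.83 (SE 0.13, adjusted p = 0.0126) and -1.17 (SE 0.12, adjusted p = 6.7e-05). The genes named next were chosen after their values were seen. Gsta2 (-1.79) and Aldh1a1 (-1.11) were lower at 18 µg, and Cyp2f2, a P450 of club cells, was 2.01-fold lower at 162 µg, where the reductase Akr1b8 (1.29) and the transporter Abcg2 (0.84) were higher. None of the 10 expressed regulators of the pathway was called at any dose.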

How the data were processed

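Lung RNA was measured on 22 dual-colour Agilent arrays lying on 7 slides. Per the file headers, Feature Extraction 10.7.3.1 produced the deposited intensity values, which give the median pixel signal of both channels for every spot without background subtraction. Log2 ratios deposited by the authors as a separate sheet served as an alternative, and their normalization is not given in the sources used here. Against loess ratios its columns had r of 0.834 to 0.998, slopes of 0.587 to 0.996 and medians of -0.05 to -0.02.

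Spots marked as outliers were left out, within-array loess (span 0.3) was applied to the log2 ratio of Cy5 over Cy3, and spots were combined by their median into 55681 probes. RefSeq accessions gave names to 26413 probes, and a gene was its probe of highest mean intensity. A probe was expressed where Cy5 exceeded the trimmed mean (5%) plus 3 trimmed standard deviations of 308 negative control spots in 80% or more of the arrays in any group. Dose and slide were fixed effects in limma 3.58.1 (R 4.3.3), which stands in for the MAANOVA of the methods, with 12 residual degrees of freedom over all arrays, and Benjamini-Hochberg adjustment ran over all probes. As a check of the code, the fit was run on simulated arrays with changes added at 162 µg alone. This gives no error rate for the calls in the mice. The number of arrays limits the precision. Over the 41 genes, log2 fold changes against control had a median standard error of 0.18, 0.20 and 0.18 for 18, 54 and 162 µg.

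Named with full values are the genes called against control and, per class, those of largest and smallest change at 162 µg. The members, lists, comparisons and alternatives were chosen with earlier results of these data known. Alternatives were other background corrections, normalizations, slide terms, filters, thresholds and probe rules, and leaving out mice. A gene counted among the other pathway genes is not reported here by name. Mice are separate samples that the labels call biological replicates.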

Additional observations from a re-analysis of the deposited data

Results flagged for a closer look

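In 13 of 164 groups of mice (41 genes in 4 groups), 1 mouse lay far from the others of its group, where chance gives about 1 in 20 groups. The genes share the same mice, so these groups are not independent and the excess over that share was not tested. The gap to the nearest mouse is given as a share of the range of the group. The 18 µg replicate 3 was such a mouse in 5 genes and the highest each time, with a gap of 0.872 for Gsto1 (log2 ratio 4.14, next -0.01), 0.775 for Mgst3 (2.30, next 0.11), 0.761 for Sult1d1 (2.39, next 0.59), 0.758 for Cbr1 (1.54, next 0.77) and 0.629 for Cbr3 (1.45, next 0.77). The 162 µg replicate 3 stood apart in Mgst3 with a gap of 0.689 (3.63, next 1.12) and in Gsto1 with 0.671 (2.43, next 0.76). Both replicate 3 mice shared a slide with control replicate 4, the highest control in Gsto1 (2.92), and the part of the slide was not tested. The 162 µg replicate 5, which had the highest mean of the fat cell markers (6.88), was highest in Ephx2 with a gap of 0.673 (3.53, next 1.20) and in Ugt1a6a with 0.628 (0.13, next -0.21). The 162 µg replicate 6 was highest in Gstp1 with 0.756 (0.49, next -0.37), the 18 µg replicate 2 in Cyp2j6 with 0.677 (1.17, next 0.64), and control replicate 1 in Gstm2 with 0.779 (2.05, next 1.86). The 18 µg replicate 4 was lowest in Cyp2d22 with 0.627 (-0.25, next 0.25).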

How the results depend on the processing

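In all alternatives each of the 15 member results past the thresholds kept its direction, but the number past them and some sizes changed. With the median over all probes of a gene, Sult1d1 went from -2.15 to -1.08 at 18 µg and from -1.60 to -0.84 at 162 µg, and Gstm6 from -0.77 to -0.48 and from -0.87 to -0.58. Sult1a1 at 162 µg went from 0.93 to 0.47 with median centring, 0.45 without normalization and 1.70 with Cy5 alone, its difference between 162 and 18 µg from 1.23 to 0.78 with quantile normalization and 2.47 with Cy5 alone, and Mgst3 from 1.39 to 0.74 with Cy5 alone. Without normalization Aldh3b1, Mgst1 and Ephx1 at 18 µg went to -1.30, -1.36 and -1.20. Members called at 18 µg numbered 8, and 3 with median centring or a 2-fold minimum, 0 without normalization, 2 in the deposited log2 table and 1 (Sult1d1) when fitted on the 2 groups alone. At 54 µg the 0 became 5 with the 2 groups alone (Cyp2s1, Por, Gstm1, Ephx1 and Sult1d1), 3 without the 4 arrays on which under 60% of probes lay above background (chosen after seeing the data), and 1 with Cy5 alone. At 162 µg the 5 became 3 with median centring or a 2-fold minimum, 0 without normalization and 8 with quantile normalization. Between 162 and 18 µg the 2 became 1 with median centring, 0 without normalization and 6 with Cy5 alone, and between 54 and 18 µg the 0 became 2 with Cy5 alone.

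With the replicate block (the sample number in place of slide), 2 members were called at 54 µg, 9 at 162 µg, 4 between 162 and 18 µg and 8 other pathway genes at 18 µg. Whether the number marks a pairing was not settled. Of 31 pairs of the same number, 20 had a correlation of deviations over 0.1 (median 0.17, lowest -0.17) and 11 shared a slide. On different slides, 20 pairs of the same number had a median of 0.10, with 10 over 0.1. There 137 pairs of different numbers had a median of -0.08, with 30 over 0.1.

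With median centring the median log2 fold change at 18 µg was -0.76 for glutathione transferases and -0.65 for all members, and at 162 µg -0.56 for glutathione transferases and 0.083 for flavin monooxygenases. Without normalization, which moved the median of all genes to -0.42, 0.13 and -0.21, glutathione transferases were at -0.92, -0.12 and -0.59, flavin monooxygenases at -0.43 at 18 µg and 0.065 at 162 µg, and all members at -0.82 at 18 µg. With Cy5 alone flavin monooxygenases were at -0.34, 0.42 and 0.74, in the deposited table at 0.057 at 162 µg, and with the median over all probes glutathione transferases were at -0.30 at 18 µg. P450 genes were at -0.53 at 18 µg with Cy5 alone.

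Other pathway genes called numbered 4, 1 and 4. At 18 µg they became 0 without normalization, 8 with Cy5 alone, 7 with slide as a random block and 7 without the dim arrays. At 54 µg they became 0 with median centring, without normalization, in the deposited table, without a slide term, with the random block and at a 2-fold minimum, 12 with the 2 groups alone and 5 without the dim arrays. At 162 µg they became 1 with median centring, 0 without normalization, 8 with quantile normalization, 10 with Cy5 alone, 2 without a slide term, 11 with the 2 groups alone and 13 without the dim arrays. The causes were not tested.

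When single mice were left out, the number of members called ranged from 0 to 8 for 18 µg, from 0 to 2 for 54 µg, from 3 to 8 for 162 µg and from 0 to 1 between 54 and 18 µg, and other pathway genes from 2 to 8, 0 to 3 and 4 to 9. At 162 µg the count was 3 without control replicate 3 or the 162 µg replicates 1 or 3, and 8 without control replicate 4. Leaving out a mouse moved no family median by more than 1 SD of the family's median log2 ratio over the control mice. This SD was 0.57 for P450, 0.26 for flavin monooxygenases and 0.13 for glutathione transferases. For P450 it is wider than the estimates (-0.17, -0.03 and 0.13), so the rule says little there. The P450 median at 54 µg ran from -0.12 to 0.07. That of flavin monooxygenases ran from -0.12 to 0.18 at 18 µg and from -0.13 to 0.24 at 54 µg.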
